A study of Mus musculus with 4 samples.

Results

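The 46 genes described here encode lysosomal hydrolases, their cofactors, proteins of the lysosomal membrane and 2 transcription factors that act on lysosomal genes. They were chosen by gene symbol from a list drawn up with earlier results of these data known. All 46 were found among the 23284 gene rows of the count tables. The groups are 2 mice labelled Msi2 -/-, which lack the RNA-binding protein gene Msi2, and 2 mice labelled Msi2 flox/flox, whose loxP-flanked alleles are intact and which are called controls here. All 4 are C57BL/6, and leukemic cells with high c-Kit, a receptor of immature blood cells, were sorted and sequenced as 2 RNA libraries a group. The title places the leukemia in the MLL class, in which a rearranged MLL gene drives the disease. The sources used here do not give the MLL rearrangement, the Cre that deleted Msi2, its promoter or the age of the mice.

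Lysosomes are acidic organelles in which proteases, glycosidases, sulfatases and lipases break down material taken up by endocytosis or delivered by autophagy. Most of the soluble enzymes carry mannose 6-phosphate and are sorted to the lysosome by receptors in the Golgi, while a proton pump, the V-ATPase, acidifies the lumen. TFEB and TFE3 are basic helix-loop-helix factors that are held in the cytoplasm when the kinase complex mTORC1 is active at the lysosomal surface and otherwise activate many lysosomal genes. Macrophages and other phagocytes are known for large amounts of lysosomal enzymes.

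Gene counts were between 72273679 and 87564774 per library, and 3 counts corresponded to between 0.0343 and 0.0412 CPM (gene counts relative to the TMM-scaled library total). Msi2 itself had 8 and 17 counts in the Msi2 -/- libraries, against 2804 and 3562 counts in the controls. The cells carried the marker genes of their label: Kit, the gene of the sort, had 68.1 and 57.1 CPM in the Msi2 -/- libraries and 50.4 and 51.9 CPM in the controls, and all 12 markers of leukemic myeloid progenitors were detected in every library. Among these, Mpo, for the myeloperoxidase of primary granules, differed with genotype at 2117 and 2159 CPM in the Msi2 -/- libraries and 4001 and 4953 CPM in the controls (log2 fold change -1.07; adjusted p = 0.265 in edgeR, 8.40e-12 in DESeq2), and Sfpi1, for the myeloid factor PU.1, at 317 and 309 CPM in the Msi2 -/- libraries and 244 and 214 CPM in the controls (log2 fold change 0.45; adjusted p = 0.293 in edgeR, 0.00126 in DESeq2). Myb had 500 and 591 CPM in the Msi2 -/- libraries and 740 and 690 CPM in the controls (log2 fold change -0.39). Ctsg differed between the Msi2 -/- libraries, at 919.9 and 3178.5 CPM, beside 2291 and 2506 CPM in the controls. Of the 12 markers, 3 had both Msi2 -/- libraries above both controls and 2 below, where 23.7% and 24.6% of all tested genes did. The part of these markers in the lysosomal values was not tested. Summed over 9 markers, B cell genes stood at 19.6 to 21.9 CPM in the Msi2 -/- libraries and 27.6 to 28.3 CPM in the controls, nearly all of it Cd79b, while Ms4a1, Pax5 and Ebf1 were at 0 counts in all 4. The sums over T and NK cell, erythroid and stromal markers were at most 1.87 CPM in any library, and those over dendritic, megakaryocyte and mast cell markers at most 23.9 CPM. The libraries also differed in sex-linked transcripts, with Xist at 0.469 and 0.624 CPM in the Msi2 -/- mice and at 1455 and 654 CPM in the controls, although both controls also carried Y-linked transcripts (224 and 242 CPM summed over 4 genes in the Msi2 -/- mice, 41.1 and 184 CPM in the controls). The labels give no sex and do not say whether a library pools animals, so the controls may hold cells of more than 1 animal. The part of this difference in the results below was not tested. In bulk RNA, fewer cells of a type and less RNA per cell cannot be told apart.

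All 46 genes passed the filter on low counts, so all are among the 13215 genes tested. Their levels, taken per kilobase of merged GENCODE exons, covered more than 3 orders of magnitude. The highest were Ctsz, the gene of a carboxypeptidase cathepsin, at 346 CPM per kilobase, the tetraspanin gene Cd63 at 335, Laptm5 at 278, Lamp1 at 272 and the aspartic protease gene Ctsd at 252. The lowest were Ids, for iduronate 2-sulfatase, at 0.927 CPM per kilobase, Ctsf at 0.438 and Ctsk, a cathepsin best known from osteoclasts, at 0.206. The plot of the members by library shows that these levels differed far more between genes than between the 4 mice.

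**Figure D1:**
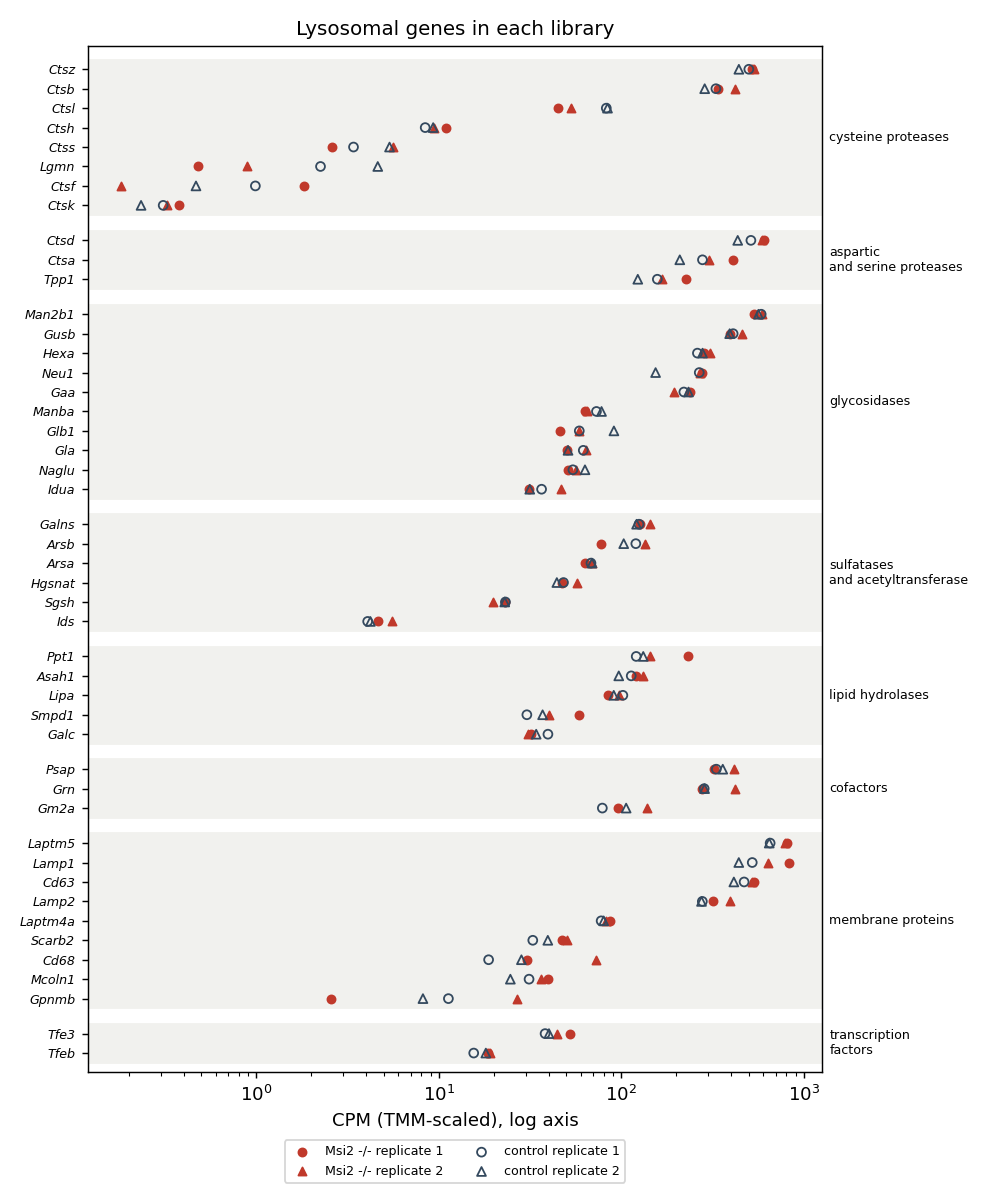
CPM of the 46 lysosomal genes on a log axis, ordered by role and by mean level within a role, with 1 point per library (filled red for Msi2 -/-, open for control, circles for replicate 1 and triangles for replicate 2). Most genes lay close together in the 4 libraries, while Gpnmb ran from 2.56 CPM in Msi2 -/- replicate 1 to 26.7 CPM in replicate 2.

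Because TFEB and TFE3 bind a palindrome that contains CACGTG, the promoters of the members were searched for those letters. Of the 46 genes, 41 had a window of 300 bases in the RefSeq promoter table (build GRCm38.p6), from 250 bases before to 50 bases after a transcription start, and Ctsb, Ctsh, Hgsnat, Asah1 and Galns did not. Since both motifs read the same on the other strand, 1 search covered both strands, and every TCACGTGA also holds a CACGTG. The shorter motif was present for 13 of the 41 members (31.7%), and for 8.09% of all 27025 genes with a window and 11.7% of the 9417 such genes that were tested here. The longer TCACGTGA was present for 4 members, Ctsd, Mcoln1, Ctsa and Gla, against 1.12% of all genes and 2.17% of tested genes. These 4 windows are shown because they hold the longer motif, which is in capitals. They lie at chr7:142387778-142388077 on the minus strand for Ctsd, chr8:3500269-3500568 on the plus strand for Mcoln1, chr2:164833523-164833822 on the plus strand for Ctsa and chrX:134600956-134601255 on the minus strand for Gla. Those of Ctsa and Gla hold the motif at 2 places each.
Ctsd: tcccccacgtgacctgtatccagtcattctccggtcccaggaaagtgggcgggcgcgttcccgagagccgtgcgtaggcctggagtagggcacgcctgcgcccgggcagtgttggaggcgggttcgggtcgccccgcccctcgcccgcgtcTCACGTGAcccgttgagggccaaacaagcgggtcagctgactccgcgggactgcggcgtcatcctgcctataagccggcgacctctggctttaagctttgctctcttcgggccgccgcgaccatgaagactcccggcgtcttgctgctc
Mcoln1: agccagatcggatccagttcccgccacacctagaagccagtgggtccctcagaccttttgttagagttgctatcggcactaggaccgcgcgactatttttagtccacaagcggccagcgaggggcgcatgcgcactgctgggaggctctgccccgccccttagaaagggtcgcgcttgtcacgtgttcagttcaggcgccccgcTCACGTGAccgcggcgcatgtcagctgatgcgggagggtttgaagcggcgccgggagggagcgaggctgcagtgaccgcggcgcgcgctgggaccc
Ctsa: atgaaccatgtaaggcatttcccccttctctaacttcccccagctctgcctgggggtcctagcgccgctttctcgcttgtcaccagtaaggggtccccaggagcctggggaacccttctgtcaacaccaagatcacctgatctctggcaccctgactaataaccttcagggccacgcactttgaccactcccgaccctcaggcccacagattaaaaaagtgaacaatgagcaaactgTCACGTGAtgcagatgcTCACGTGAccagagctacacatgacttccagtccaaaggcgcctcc
Gla: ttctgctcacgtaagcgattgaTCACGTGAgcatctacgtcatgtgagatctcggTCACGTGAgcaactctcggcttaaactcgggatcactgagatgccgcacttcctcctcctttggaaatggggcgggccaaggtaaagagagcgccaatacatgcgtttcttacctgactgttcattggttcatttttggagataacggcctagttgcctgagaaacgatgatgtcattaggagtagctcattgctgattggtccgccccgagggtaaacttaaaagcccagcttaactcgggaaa

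The motif in the Ctsd window began 99 bases before the start and that in the Mcoln1 window 46 bases before it. Ctsa had 1 copy beginning 13 bases before the start and another just inside the transcript, and the Gla copies began 228 and 195 bases before it. Lamp1 carried CACGTG at 4 places, beginning 61, 45, 28 and 15 bases before the start, without the longer motif. Of the 4 members with TCACGTGA, all but Gla had both Msi2 -/- libraries above both controls, as did 37.3% of the 204 tested genes with that motif. Of the 13 members with CACGTG, 4 lay above both controls in both Msi2 -/- libraries and 3 below, and of the 28 members without it 16 lay above and 2 below. Among all tested genes with a window, 25.0% lay above and 25.2% below with CACGTG, and 23.9% above and 24.6% below without it. The median log2 fold change of the members was -0.05 with CACGTG and 0.28 without, beside 0.0052 and -0.0030 over the tested genes. A match in these windows is a description of the letters and not of binding.

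Lysosomal transcripts stood moderately higher in the Msi2 -/- cells as a sum, with Lamp1, Laptm5, Ctsd and other abundant members above the controls and Ctsl and Lgmn below. Summed over the 46 genes, the level was 8448 and 8714 CPM in the Msi2 -/- libraries and 7538 and 7052 CPM in the controls. The log2 fold change lay above 0 for 33 of the 46 and below 0 for 13 (71.7% above, where 49.7% of all tested genes were). The median log2 fold change was 0.19, beside -0.0020 over all tested genes. For 24 members both Msi2 -/- libraries lay above both controls, or 52.2%, where 23.7% of all tested genes did so. For 5 members (Ctsl, Lgmn, Manba, Glb1 and Galc) both lay below, or 10.9%, where 24.6% of tested genes did. In the remaining 17 the groups overlapped.

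By edgeR's quasi-likelihood test with Benjamini-Hochberg adjustment, 0 of the 46 members had an adjusted p under 0.05 (0.00757% of tested genes, which is 1 gene), and their adjusted p ran from 0.271 to 0.972. The deleted gene Msi2 itself had an edgeR adjusted p of 0.122 and a DESeq2 adjusted p of 6.35e-80, so the edgeR threshold was not reached even there. The unadjusted edgeR p was under 0.05 for 7 higher members (15.2%, where 6.69% of tested genes were) and for 3 lower ones (6.52%, where 6.17% were). DESeq2, which called more genes than edgeR here, called 2 members higher, Lamp1 and Laptm5 (4.35%, where 3.1% of its tested genes were called higher), and 2 lower, Ctsl and Lgmn (4.35%, where 2.71% were). The shares of members called lower by edgeR's unadjusted p and by DESeq2 in either direction were near the background. With 2 mice a group the smallest 2-sided p of an exact permutation test is 0.333, and p-values rest on a spread shared across genes.

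**Figure D2:**
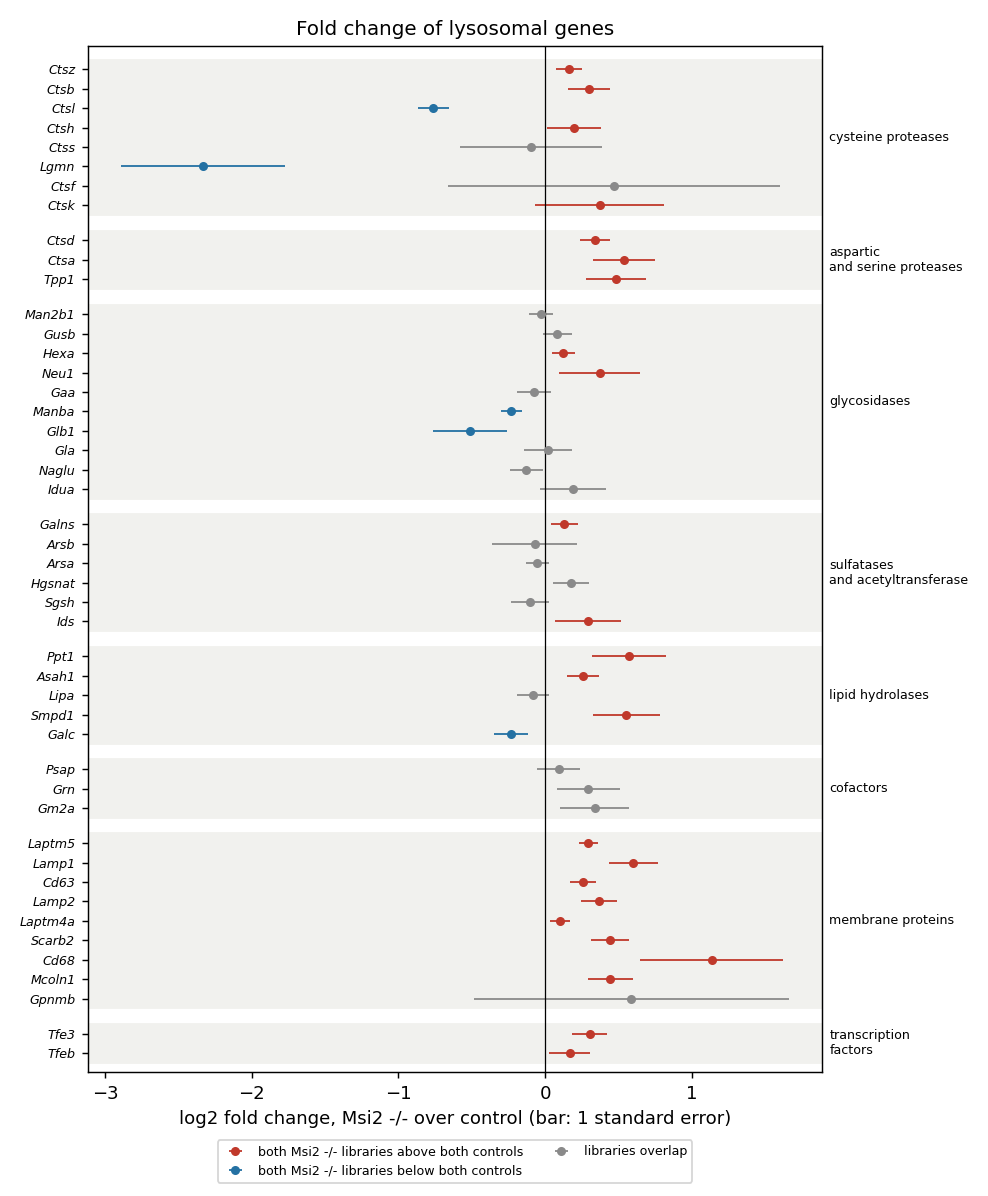
Log2 fold change of Msi2 -/- over control for each member by role, with 1 standard error from edgeR. Red marks the 24 genes with both Msi2 -/- libraries above both controls, blue the 5 with both below, grey the 17 that overlap; all 9 membrane protein genes lie above 0 in this fit, though Gpnmb was at -0.31 by limma-voom.

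The membrane proteins, which bound the organelle and carry its channels and receptors, lay in 1 direction in nearly every gene. Their log2 fold changes were all above 0 and had a median of 0.44 (Gpnmb was below 0 by limma-voom). In 8 of them both Msi2 -/- libraries lay above both controls (88.9%, where 23.7% of all tested genes did so). Their sum was 2688 and 2612 CPM in the Msi2 -/- libraries, against 2095 and 1955 CPM in the controls. Lamp1, which encodes a major glycoprotein of the lysosomal membrane, had 824 and 635 CPM in the Msi2 -/- mice, against 521 and 440 CPM in the controls. Its groups did not overlap, the Msi2 -/- mice differed from each other more than the controls did, and the log2 fold change was 0.60 (SE 0.166; adjusted p = 0.335 by edgeR and 0.0152 by DESeq2). DESeq2's call of Lamp1 was lost without Msi2 -/- replicate 1 (adjusted p = 0.149) and without control 2 (adjusted p = 0.482).

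Laptm5, a lysosomal transmembrane protein gene of blood cells, was the most evenly measured of the group. It had 804 and 789 CPM in the Msi2 -/- libraries and 654 and 646 CPM in the controls, so that the libraries of each group lay far closer to each other than to the other group. The log2 fold change was 0.29 (SE 0.063; adjusted p = 0.303 by edgeR and 0.000239 by DESeq2). With any 1 library left out the log2 fold change stayed between 0.29 and 0.31, while DESeq2's adjusted p was between 0.136 and 0.329, so its call needed all 4 libraries.

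Lamp2, whose protein is a receptor in chaperone-mediated autophagy, had 317 and 396 CPM in the Msi2 -/- mice and 278 and 275 CPM in the controls (log2 fold change 0.37, SE 0.125, edgeR adjusted p = 0.371). Cd63, for a tetraspanin of late endosomes and lysosomes, had 536 and 523 CPM in the Msi2 -/- mice and 471 and 413 CPM in the controls (log2 fold change 0.26, SE 0.089, edgeR adjusted p = 0.373). Scarb2 encodes LIMP-2, which carries glucocerebrosidase to the lysosome. It had 47.6 and 50.5 CPM in the Msi2 -/- mice, against 32.7 and 39.5 CPM in the controls (log2 fold change 0.44, SE 0.128, edgeR adjusted p = 0.340). Mcoln1, for a calcium channel of the lysosomal membrane, had 39.6 and 36.3 CPM in the Msi2 -/- mice, against 31.2 and 24.6 CPM in the controls (log2 fold change 0.44, SE 0.154, edgeR adjusted p = 0.373). In these 4 genes the groups did not overlap. Without control 2 the log2 fold change was 0.17 for Cd63 and 0.29 for Mcoln1, and without Msi2 -/- replicate 2 it was 0.20 for Lamp2. Laptm4a, at 86.8 and 82.2 CPM in the Msi2 -/- mice and 77.5 and 80.0 CPM in the controls, differed least.

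Cd68, the macrosialin gene of phagocytes, had 30.3 and 73.1 CPM in the Msi2 -/- libraries and 18.7 and 28.3 CPM in the controls. Both Msi2 -/- libraries lay above the controls, but replicate 1 only by a little. The log2 fold change was 1.14 (SE 0.487, edgeR adjusted p = 0.421), and it was 0.37 without replicate 2 and 1.64 without replicate 1. Gpnmb, a glycoprotein gene of macrophages, was the only membrane protein whose groups overlapped, at 2.56 and 26.7 CPM in the Msi2 -/- libraries and 11.3 and 8.18 CPM in the controls. Its log2 fold change of 0.59 (SE 1.07, edgeR adjusted p = 0.842) became -1.92 without Msi2 -/- replicate 2.

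Among the cysteine proteases the members lay in both directions. Ctsl, the gene of cathepsin L, an endopeptidase of many tissues, had 45.1 and 53.3 CPM in the Msi2 -/- mice and 82.7 and 84.0 CPM in the controls. The controls were nearly equal and both Msi2 -/- mice were well below them. The log2 fold change was -0.76 (SE 0.105), or 0.590-fold, with an edgeR adjusted p of 0.271, the smallest among the members, and a DESeq2 adjusted p of 3.68e-06. DESeq2 called Ctsl whichever library was left out, with adjusted p from 1.59e-06 to 0.0453 and edgeR log2 fold changes from -0.89 to -0.64.

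Lgmn encodes legumain, an asparaginyl endopeptidase that also processes cathepsins, and was low in all 4 libraries. It had 42 and 68 counts in the Msi2 -/- mice and 182 and 337 counts in the controls, which is 0.481 and 0.884 CPM against 2.24 and 4.62 CPM. The groups did not overlap, and the controls differed 2-fold from each other. The log2 fold change was -2.33 (SE 0.558; adjusted p = 0.319 by edgeR and 0.0085 by DESeq2). It ran from -2.83 to -1.72 with 1 library left out, and DESeq2 kept its call only without Msi2 -/- replicate 2.

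Ctsz, the member of highest level in this group, had 518 and 536 CPM in the Msi2 -/- mice, against 499 and 440 CPM in the controls (log2 fold change 0.17, SE 0.089, edgeR adjusted p = 0.485). Ctsb, for the abundant cathepsin B, had 338 and 421 CPM in the Msi2 -/- mice and 330 and 286 CPM in the controls. In both genes the Msi2 -/- libraries lay above the controls, in Ctsb with replicate 1 only just above control 1. Without control 2 the log2 fold change of Ctsz was 0.080, and without Msi2 -/- replicate 2 that of Ctsb was 0.14. Ctss, a cathepsin gene of antigen-presenting cells, had 2.60 and 5.62 CPM in the Msi2 -/- mice and 3.40 and 5.36 CPM in the controls (log2 fold change -0.095, SE 0.486, edgeR adjusted p = 0.952), so that the Msi2 -/- libraries enclosed the controls. Ctsf had 1.83 and 0.182 CPM in the Msi2 -/- mice and 0.987 and 0.466 CPM in the controls (log2 fold change 0.47, SE 1.13, edgeR adjusted p = 0.886), with the Msi2 -/- replicates in the opposite order. Ctsh, an aminopeptidase cathepsin gene, had at least 9.35 CPM in the Msi2 -/- mice and at most 9.30 CPM in the controls. Ctsk had 33 and 25 counts in the Msi2 -/- mice and 25 and 17 counts in the controls. In CPM these were 0.378 and 0.325 against 0.308 and 0.233. Ctsk was thus counted as above both controls only after scaling, at counts that tied between 1 library of each group.

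The aspartic and serine proteases stood higher in both Msi2 -/- mice. Their sum was 1241 and 1060 CPM in the Msi2 -/- libraries, against 948 and 766 CPM in the controls. In all 3 genes both Msi2 -/- libraries lay above both controls, as they did for 23.7% of all tested genes. Ctsd, for cathepsin D, the main aspartic protease of lysosomes, had 608 and 592 CPM in the Msi2 -/- mice and 513 and 434 CPM in the controls (log2 fold change 0.34 with SE 0.103; adjusted p = 0.350 by edgeR and 0.0610 by DESeq2). Ctsa encodes a serine carboxypeptidase that stabilises beta-galactosidase and neuraminidase. It had 406 and 302 CPM in the Msi2 -/- mice, against 278 and 209 CPM in the controls (log2 fold change 0.54, SE 0.212, edgeR adjusted p = 0.403). Tpp1, for a tripeptidyl peptidase, had 226 and 166 CPM in the Msi2 -/- mice, against 157 and 123 CPM in the controls (log2 fold change 0.48, SE 0.203, edgeR adjusted p = 0.418). In Ctsa and Tpp1 replicate 2 of the Msi2 -/- mice was close to control 1, and leaving out Msi2 -/- replicate 1 gave log2 fold changes of 0.32 for Ctsa and 0.25 for Tpp1.

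The glycosidases, which trim sugars from glycoproteins, glycolipids and glycosaminoglycans, showed no common direction. Their sum was 1964 and 2106 CPM in the Msi2 -/- libraries and 2026 and 1936 CPM in the controls, and 5 of the 10 genes had a log2 fold change above 0. Man2b1, for the lysosomal alpha-mannosidase and the highest of the group in CPM, had 535 and 590 CPM in the Msi2 -/- mice and 584 and 564 CPM in the controls (log2 fold change -0.03, SE 0.080, edgeR adjusted p = 0.904). Manba, for beta-mannosidase, had 63.6 and 64.9 CPM in the Msi2 -/- mice, against 73.0 and 77.8 CPM in the controls. Each of its groups was tight and they did not overlap, at a log2 fold change of -0.23 (SE 0.071; adjusted p = 0.352 by edgeR and 0.175 by DESeq2). Glb1, for beta-galactosidase, had 46.3 and 58.7 CPM in the Msi2 -/- mice and 58.8 and 91.0 CPM in the controls, where 1 library of each group was nearly equal (log2 fold change -0.51, SE 0.253, edgeR adjusted p = 0.463, and -0.16 without control 2).

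Neu1 and Hexa stood above the controls in both Msi2 -/- libraries. Neu1, for neuraminidase, had 275 and 270 CPM in the Msi2 -/- mice and 267 and 154 CPM in the controls, so that control 2 alone stood apart and the log2 fold change without it was 0.032. Hexa, for the alpha subunit of beta-hexosaminidase, ran from 261 to 305 CPM over all 4 libraries. In the other 5, Gaa, Gla, Gusb, Idua and Naglu, the groups overlapped and the log2 fold changes lay between -0.13 and 0.19.

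Sulfatases and the acetyltransferase Hgsnat, which take part in the breakdown of glycosaminoglycans and sulfatides, also differed little. Galns, for galactosamine-6-sulfatase, had 126 and 144 CPM in the Msi2 -/- mice and 125 and 121 CPM in the controls (log2 fold change 0.13, SE 0.089, edgeR adjusted p = 0.577). Arsb, for arylsulfatase B, had 77.0 and 135 CPM in the Msi2 -/- mice and 120 and 103 CPM in the controls (log2 fold change -0.07, SE 0.292, edgeR adjusted p = 0.937). Its Msi2 -/- libraries lay on opposite sides of both controls. Ids, at 4.63 and 5.52 CPM in the Msi2 -/- mice and 4.07 and 4.21 CPM in the controls, was low throughout. Arsa, Sgsh and Hgsnat overlapped between the groups.

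Of the lipid hydrolases, 3 of 5 (60%) stood above both controls in both Msi2 -/- mice, where 23.7% of all tested genes did. Ppt1, which removes palmitate from proteins, had 233 and 143 CPM in the Msi2 -/- mice and 121 and 132 CPM in the controls, so that replicate 1 stood apart (log2 fold change 0.57, SE 0.251, edgeR adjusted p = 0.425). Without that replicate its log2 fold change was 0.19. Smpd1, for acid sphingomyelinase, had 5151 and 3074 counts in the Msi2 -/- mice, against 2460 and 2698 counts in the controls (log2 fold change 0.55, SE 0.230, edgeR adjusted p = 0.414), and without replicate 1 its log2 fold change was 0.26. Asah1, for acid ceramidase, had 120 and 132 CPM in the Msi2 -/- mice, against 113 and 96.8 CPM in the controls. Galc, for galactosylceramidase, was lower at 32.1 and 30.6 CPM in the Msi2 -/- mice, against 39.6 and 34.1 CPM in the controls, and Lipa, for lysosomal acid lipase, overlapped.

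The 3 cofactor genes were highest in 1 and the same library. Psap, whose product is cut into the saposins that help sphingolipid hydrolases, had 322 and 414 CPM in the Msi2 -/- mice and 331 and 359 CPM in the controls (log2 fold change 0.09, SE 0.144, edgeR adjusted p = 0.811). Grn, for progranulin, had 278 and 422 CPM in the Msi2 -/- mice and 284 and 286 CPM in the controls (log2 fold change 0.30, SE 0.213, edgeR adjusted p = 0.595). Gm2a, for the activator of ganglioside GM2 breakdown, had 96.4 and 137 CPM in the Msi2 -/- mice and 78.6 and 106 CPM in the controls. In all 3 genes Msi2 -/- replicate 2 was the highest of the 4 libraries and replicate 1 was within or below the controls. Without replicate 2 the log2 fold changes were -0.10 for Psap, -0.034 for Grn and 0.061 for Gm2a.

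The transcription factor genes Tfeb and Tfe3 stood slightly above the controls. Tfeb had 18.6 and 19.1 CPM in the Msi2 -/- mice and 15.5 and 18.1 CPM in the controls (log2 fold change 0.17, SE 0.141, edgeR adjusted p = 0.649). Tfe3 had 52.5 and 44.3 CPM in the Msi2 -/- mice and 38.2 and 40.1 CPM in the controls (log2 fold change 0.31, SE 0.119, edgeR adjusted p = 0.401). Their activity is set largely by where the protein lies in the cell, which RNA counts do not show. Without control 1 the log2 fold change of Tfeb was 0.063, and without Msi2 -/- replicate 1 that of Tfe3 was 0.19. Tfe3 is 1 of 4 members on the X chromosome in the RefSeq table, with Lamp2, Ids and Gla, and the difference in Xist between the groups stands beside their values.

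Neither the 2 Msi2 -/- mice nor the 2 controls were alike in lysosomal genes. The absolute log2 difference between the Msi2 -/- mice had a median of 0.23 over the members and 0.16 over all tested genes. Between the controls these medians were 0.20 and 0.14. Msi2 -/- replicate 2 was above replicate 1 for 28 of the 46 members (60.9%, where 49.8% of tested genes were). Control 2 was above control 1 for 21 (45.7%, where 48.7% were). Replicate 1 lay below and replicate 2 above both controls for 8 members, Ctss, Gla, Idua, Man2b1, Psap, Arsb, Grn and Gpnmb (17.4%, where 8.13% of tested genes did so). The opposite order was found for 2 members, Ctsf and Gaa (4.35%, where 8.17% did). The widest gap was that of Gpnmb, which was 10.4-fold higher in replicate 2 than in replicate 1, followed by Ctsf, Cd68, Ctss and Arsb.

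**Figure D3:**
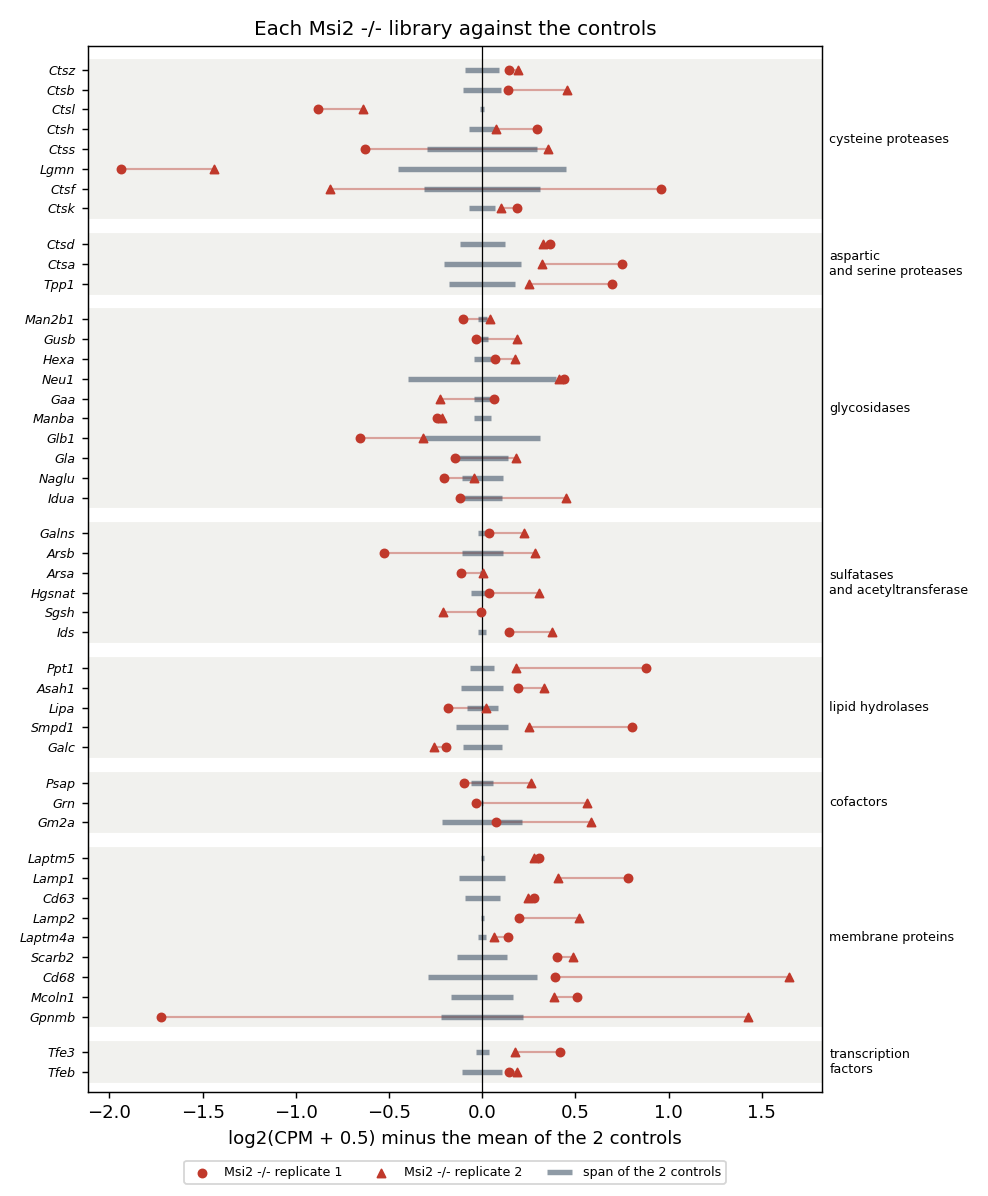
Each Msi2 -/- library against the mean of the 2 controls on the log2(CPM + 0.5) scale, with the span of the controls as a grey bar. Ctsl and Lgmn lie to the left in both mice and most membrane proteins to the right, while for Gpnmb, Arsb and Ctss the 2 mice lie on opposite sides.

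Monocyte and macrophage markers differed between the same mice. The 20 markers summed to 1079 and 2148 CPM in the Msi2 -/- libraries and 1518 and 1451 CPM in the controls. Most of each sum was Ly6c2 alone, at 942 and 1649 CPM in the Msi2 -/- libraries and 1268 and 1128 CPM in the controls. Of the 12 markers tested, 9 were higher in Msi2 -/- replicate 2 than in replicate 1. Ccr2, the monocyte chemokine receptor gene, had 1746 and 24016 counts in the Msi2 -/- mice and 10511 and 14469 counts in the controls. Other genes of the list differed with genotype: Csf1r, for the receptor of the macrophage growth factor CSF-1, had 10.5 and 13.96 CPM in the Msi2 -/- mice and 4.32 and 6.39 CPM in the controls (log2 fold change 1.19; adjusted p = 0.325 in edgeR, 0.00933 in DESeq2). Cd14, for a lipopolysaccharide co-receptor, had 70.1 and 43.6 CPM in the Msi2 -/- mice and 33.5 and 33.1 CPM in the controls (log2 fold change 0.77; adjusted p = 0.360 in edgeR, 0.0515 in DESeq2), with the Msi2 -/- mice in the opposite order to Ccr2. Cx3cr1, Vcam1 and Apoe went the other way, at log2 fold changes of -1.75, -1.75 and -0.49. Of the 12 tested markers, 2 had both Msi2 -/- libraries above both controls and 3 below, where 23.7% and 24.6% of all tested genes did. The resident macrophage genes C1qc and Timd4 were at 0 counts in all libraries. C1qa and C1qb were at 0 in all but Msi2 -/- replicate 2, which had 1 count of each. Markers of late neutrophils summed to 1398 and 2225 CPM in the Msi2 -/- mice, against 1025 and 678 CPM in the controls, in the direction of the members' sum. The sum was mostly S100a8, S100a9 and Ngp; of the 9 tested, 6 were above 0 on the log2 fold change scale and 3 below it, Mmp8 (-1.81), Cxcr2 (-1.63) and Mmp9 (-0.71). The part of these cells in the lysosomal values was not tested. Cd68, Gpnmb, Psap, Grn and Arsb followed the order of Ccr2 between the Msi2 -/- mice, whereas Lamp1, Ctsa, Tpp1, Ppt1 and Smpd1 were higher in replicate 1. These are examples: of all 46 members, 28 were higher in replicate 2 (60.9%, where 49.8% of tested genes were).

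Genes of the same organelle outside the members, from lists chosen by function, were counted in the same way. Like the members, these lists were chosen with earlier results of these data known, so they are no independent check. Over all tested genes, 23.7% lay above and 24.6% below both controls in both Msi2 -/- libraries. The unadjusted edgeR p was under 0.05 for 6.69% higher and 6.17% lower. DESeq2 called 3.1% of its tested genes higher and 2.71% lower. These shares belong beside the counts of each list below. The V-ATPase, the proton pump of the lysosome, had 17 tested subunit and accessory genes, and the log2 fold change of 16 of them was above 0 (median 0.28); in 14 both Msi2 -/- libraries lay above both controls. Its sum was 2371 and 2313 CPM in the Msi2 -/- libraries, against 2077 and 1832 CPM in the controls. In edgeR 0 genes passed the adjusted threshold and 8, all higher, had an unadjusted p under 0.05; the DESeq2 calls were 2, both higher. Atp6v1a, the catalytic subunit gene, had 364 and 363 CPM in the Msi2 -/- mice and 300 and 278 CPM in the controls (log2 fold change 0.33 with SE 0.072; adjusted p = 0.308 by edgeR and 0.0036 by DESeq2). Atp6v0a1, a membrane subunit gene, had 49.9 and 50.2 CPM in the Msi2 -/- mice and 41.7 and 39.1 CPM in the controls (log2 fold change 0.31 with SE 0.085; adjusted p = 0.335 by edgeR and 0.0492 by DESeq2).

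The genes that deliver enzymes to the lysosome gave a like picture. Of 21 tested, 17 lay above 0, with a median log2 fold change of 0.18, and 15 had both Msi2 -/- libraries above both controls and 0 below. An unadjusted edgeR p under 0.05 was found for 4, all higher, and the 2 DESeq2 calls were higher too. Sort1, for the sorting receptor sortilin, had 476 and 489 CPM in the Msi2 -/- mice and 385 and 358 CPM in the controls (log2 fold change 0.38 with SE 0.072; adjusted p = 0.293 by edgeR and 0.000363 by DESeq2). Vps18, for a tethering subunit that fuses endosomes with lysosomes, had 111 and 108 CPM in the Msi2 -/- mice and 88.5 and 79.1 CPM in the controls (log2 fold change 0.39 with SE 0.083; adjusted p = 0.303 by edgeR and 0.00907 by DESeq2).

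Of 42 further lysosomal hydrolases and proteins tested, 28 lay above 0 and 14 below, with a median log2 fold change of 0.19. In 18 both Msi2 -/- libraries lay above both controls and in 5 below. The unadjusted edgeR p was under 0.05 for 8 higher and 2 lower genes, with 3 higher and 2 lower ones among the DESeq2 calls. Clcn7, for the chloride and proton exchanger of the lysosome, had 68.1 and 63.0 CPM in the Msi2 -/- mice and 49.7 and 42.3 CPM in the controls (log2 fold change 0.51 with SE 0.112; adjusted p = 0.308 by edgeR and 0.00888 by DESeq2). Arsg, a sulfatase gene, went the other way, at 10.6 and 11.5 CPM in the Msi2 -/- mice and 17.9 CPM in each control (log2 fold change -0.70 with SE 0.136; adjusted p = 0.293 by edgeR and 0.000464 by DESeq2).

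Genes of mTORC1 and folliculin at the lysosome, and of autophagy, had medians closer to 0. Of 21 tested genes of the first list 13 lay above 0, with a median log2 fold change of 0.05, 8 stood above both controls in both Msi2 -/- mice and 1 below. Its smallest p-values were those of Rragb, for a Rag GTPase, at 1.10 and 2.00 CPM in the Msi2 -/- mice and 0.432 and 0.563 CPM in the controls, and of Lamtor1 (2400001E08Rik in the files), for a scaffold of the Rag GTPases, at 117 and 120 CPM in the Msi2 -/- mice and 101 and 85.2 CPM in the controls. Their edgeR adjusted p-values were 0.336 and 0.348. In this list 3 genes, all higher, had an unadjusted edgeR p under 0.05, and 1 of the DESeq2 calls, also higher, fell in it. Of 27 autophagy genes 14 lay above 0, with a median of 0.02, 9 stood above and 7 below both controls in both Msi2 -/- mice, and edgeR's unadjusted p was under 0.05 for 4 in each direction. Atg12, a conjugation factor gene of autophagosome formation, had 105 and 117 CPM in the Msi2 -/- mice, against 151 and 143 CPM in the controls (log2 fold change -0.40 with SE 0.085; adjusted p = 0.303 by edgeR and 0.00915 by DESeq2). Gabarap, for an autophagosome membrane protein, had 196 and 203 CPM in the Msi2 -/- mice, against 167 and 135 CPM in the controls (log2 fold change 0.41, SE 0.122, edgeR adjusted p = 0.349).

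**Figure D4:**
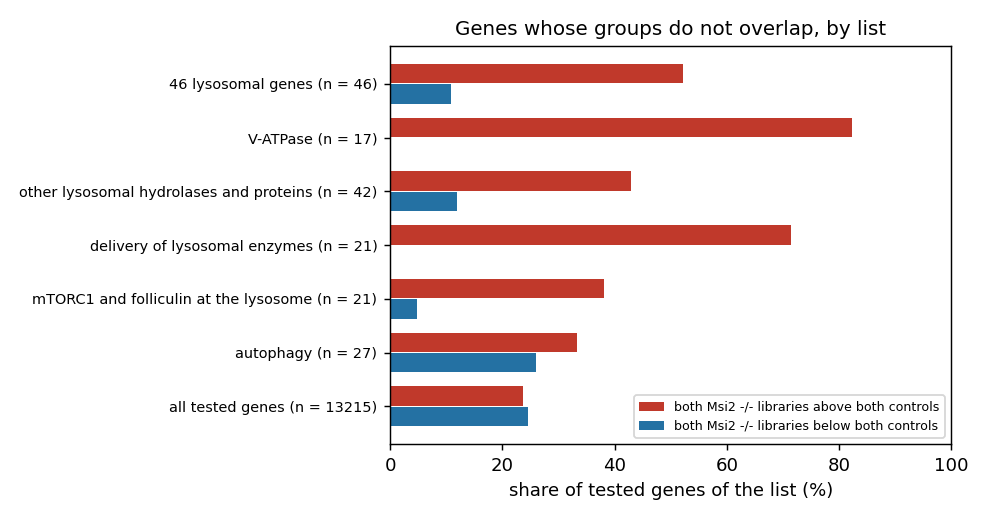
Share of tested genes in each list with both Msi2 -/- libraries above (red) or below (blue) both controls, in percent. The 46 lysosomal genes stand at 52.2% above and 10.9% below, and all 13215 tested genes at 23.7% and 24.6%.

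Read sharing limits some of these values. In GENCODE, on another build than the files, exons of Ctsa, Ctsb, Ctsd, Ctsz, Glb1, Idua, Lamp1, Ppt1 and Sgsh overlap those of another protein-coding gene, and the sources used here do not give the strand setting of the counting, so reads of such pairs may not be separated. The same holds for Ctsl, which overlaps a predicted pseudogene and an antisense gene. Arsa, Arsb and Galc also overlap antisense or other noncoding genes on the opposite strand. The median log2 fold change of the members ran from 0.10 without Msi2 -/- replicate 2 to 0.25 without Msi2 -/- replicate 1.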

How the data were processed

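RNA was sequenced in 4 libraries, and the design text names 2 mice per group. The labels' protocols name Trizol and RNeasy for extraction, the Illumina TruSeq kit and paired reads on a HiSeq2000. The submitters' processing notes list Trimmomatic, STAR, HTSeq, DESeq and build mm9 and give no versions. Each deposited file holds whole-number counts by gene symbol, whose totals differ between libraries as raw counts do. The 5 closing rows that name no gene held 19.1% to 20.1% of counts and were left out.

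Genes of low count were dropped by filterByExpr. It asked for the CPM of 10 counts at the median library size in at least 2 libraries, and for a total of at least 15. Libraries were scaled by TMM. The quasi-likelihood test of edgeR 4.0.16 in R 4.3.3 was run on 13215 genes, 2-sided, with group as the only term. Benjamini-Hochberg adjustment was over all of them. Fold changes are log2, Msi2 -/- minus control, and their standard errors come from the F statistic. DESeq2 1.42.0 gave an adjusted p for 13350 genes. Both were tested on simulated counts. Differences between single libraries are on the log2(CPM + 0.5) scale. Replicates differed beyond sampling noise (chi-square per gene 125 between Msi2 -/- libraries and 51.7 between controls).

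Library names begin with 1 number in the Msi2 -/- group and another in the controls; if it marks a batch, batch and genotype cannot be told apart. Members and lists were chosen with earlier results of these data known. Library values are given for members with an unadjusted edgeR p or DESeq2 adjusted p under 0.05, the highest of each role, the 5 that differed most between the Msi2 -/- libraries, and Tfeb, Tfe3, Lgmn and Gpnmb; of each other pathway list, the 2 genes of smallest edgeR p. Further members, and further genes such as Ccr2, were added after their values were seen. Chromosomes and promoters come from RefSeq (GRCm38.p6) and exon lengths from GENCODE M21, on another build than the files, and serve only for sequence, names and levels per kilobase. Alternatives tried were RLE scaling, no scaling factor (only for counts of libraries that do not overlap or lie on opposite sides), no filter or 1 CPM in 2 libraries, DESeq2, limma-voom 3.58.1, edgeR's likelihood ratio test, the replicate number as a block, and each library left out.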

Additional observations from a re-analysis of the deposited data

How the results depend on the processing

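The sign of the fold change was the same for 44 of 46 members under RLE scaling, both filters (Ctsk did not pass the 1 CPM filter), DESeq2, limma-voom, the likelihood ratio test and the replicate block. The exceptions were Ctsf (-0.18 by limma-voom, -0.14 with the replicate block) and Gpnmb (-0.31 and -0.20), and the cause was not tested. Leaving out 1 library changed the sign of 13 members, whose log2 fold changes ran from -1.98 to 1.33 for Ctsf, -0.75 to 0.37 for Ctss, -0.22 to 0.063 for Gaa, -0.16 to 0.19 for Gla, -0.031 to 0.20 for Gusb, -0.12 to 0.46 for Idua, -0.19 to 0.028 for Lipa, -0.10 to 0.050 for Man2b1, -0.10 to 0.27 for Psap, -0.11 to 0.016 for Arsa, -0.53 to 0.29 for Arsb, -0.034 to 0.57 for Grn and -1.92 to 1.46 for Gpnmb. Members called at an adjusted p under 0.05 numbered 4 by DESeq2, 2 by edgeR's likelihood ratio test (Ctsl and Lgmn) and 0 by limma-voom, under RLE scaling, both filters and the replicate block, and with any 1 library left out of edgeR. DESeq2's 4 calls became 1 to 9 with 1 library left out, an alternative chosen after seeing the data: 5 without Msi2 -/- replicate 1, 9 without replicate 2, 6 without control 1 and 1 without control 2. Over all genes the calls numbered 1 by edgeR, 6 with no filter, 776 by DESeq2, 0 by limma-voom, 312 by the likelihood ratio test, 0 with the replicate block, and 0 to 106 with 1 library left out. Members at an unadjusted p under 0.05 numbered 7 higher and 3 lower, against 13 higher by DESeq2, and 1 to 11 higher and 1 to 4 lower with 1 library left out, with 1 in each direction without control 2 and 11 higher without Msi2 -/- replicate 1. The median log2 fold change of the members was between 0.10 and 0.25 under these same alternatives, and the number whose groups do not overlap was between 27 and 29 under other scalings and filters. The replicate numbers are not said to pair mice, and the deviations of same-numbered libraries correlated at 0.0393. At 3 counts per library, levels under 0.0412 CPM are not detectable, and every member stood above that in every library.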
